A study of Mus musculus with 2 samples.

Results

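Checkpoint ligands are described here in tumour and myeloid cells of a mouse lung tumour, through 10 genes: Cd274 and Pdcd1lg2, Cd80 and Cd86, Nectin2 and Pvr, and Lgals9, Vsir, Cd276 and Nt5e. They were taken by symbol from 34097 listed genes, and their unique molecular identifiers (UMIs, each marking 1 captured transcript) were summed in 4 classes of cells set by other genes. The data are 10x Genomics single-cell libraries of tumours grown from LLC cells, a mouse Lewis lung carcinoma line, and labelled as lung cancer xenografts. There is 1 control library and 1 in which a short hairpin RNA targets Gfpt2, an enzyme of the hexosamine pathway. The second is called the knockdown library. The host strain, the age and sex of the animals, the number of animals behind a library and which cells carried the hairpin are not given in the sources used here. With 1 library per group no test between groups can be made, so every interval below covers counting error within 1 library and not the spread between tumours.

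These genes act at the contact between T cells or natural killer (NK) cells and the cells that they meet. Cd274 and Pdcd1lg2 encode PD-L1 and PD-L2, the ligands of the inhibitory receptor PD-1, and Cd80 and Cd86 bind both CD28, which activates T cells, and CTLA-4, which restrains them. Nectin2 and Pvr are bound by the inhibitory receptor TIGIT and by the activating receptor CD226. Lgals9 encodes galectin-9, a ligand of TIM-3 (Havcr2), Vsir encodes VISTA, an inhibitory protein of myeloid and T cells, Cd276 encodes B7-H3, and Nt5e encodes CD73, which makes adenosine outside the cell. Interferons are known inducers of Cd274 and Lgals9.

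A cell counted as a macrophage when C1qa, C1qb and C1qc together reached 10 per 10000 UMIs, and as a monocyte when Lyz2 reached 20 per 10000 with C1q under 5. A dendritic cell had at least 3 UMIs of Flt3, Zbtb46, Xcr1, Clec9a and Ccr7 and none of Cd3. A tumour-like cell had no UMI of the leukocyte gene Ptprc, Lyz2 under 5 per 10000 and at least 5000 UMIs. Of 10662 control and 11450 knockdown cells, 3990 and 4556 were macrophages, 144 and 40 monocytes, 62 and 56 dendritic cells and 4986 and 5211 tumour-like cells. Cells with 2 Cd3 UMIs or more and low C1q and Lyz2, 504 and 441 in number, were read beside them as T cells. The median depth was 5380 UMIs in control and 3954 in knockdown macrophages, and 18744 and 14667 in tumour-like cells. The libraries shared 37 cell barcodes. Gfpt2 itself was at 2.05 CPM (UMIs of the gene as a share of all UMIs of the class, scaled as counts-per-million; 212 UMIs) in control and 0.650 CPM (57 UMIs) in knockdown tumour-like cells, a log2 ratio of -1.65 (-2.25 to -1.08).

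The classes were not pure, and this touches the results below. Tumour-like cells carried Hmga2 at 220 and 218 CPM, while the epithelial markers Krt8, Krt18 and Epcam gave 9, 1 and 4 UMIs in all control tumour-like cells. The 8 fibroblast markers summed to 2525 CPM in control and 2836 CPM in knockdown tumour-like cells, and whether fibroblasts form part of the class was not tested. The same list summed to 301 CPM in control and 830 CPM in knockdown macrophages, and Hmga2 was at 32.8 and 88.2 CPM there. A Ptprc UMI was present in 33 of 62 control and 29 of 56 knockdown dendritic cells, and 14 cells in each library met both the dendritic and the tumour-like rule. In monocytes the 6 neutrophil markers summed to 1250 CPM in control and 93.1 CPM in knockdown cells, and the 10 T cell markers to 19.3 and 270 CPM. Vsir lies within Cdh23 on the opposite strand in the GENCODE vM21 gene models, and whether the counting used strand is not given in the sources used here. Cdh23 gave 250 and 229 UMIs in macrophages against 3274 and 2867 for Vsir.

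Cd274 was present in every class, and its level in tumour-like cells was 20.6% of that in macrophages among control cells and 24.5% among knockdown cells. In control cells it stood at 250 CPM (212 to 294) in dendritic cells, 179 CPM (174 to 185) in macrophages, 156 CPM (124 to 194) in monocytes, 91.3 CPM (80.8 to 103) in T cells and 36.9 CPM (35.8 to 38.1) in tumour-like cells. In knockdown cells the values were 176 CPM (146 to 210), 191 CPM (185 to 197), 214 CPM (136 to 321), 123 CPM (108 to 138) and 46.8 CPM (45.4 to 48.2) in the same order of classes. Monocytes and macrophages had overlapping intervals in both libraries, and dendritic cells stood above macrophages in the control library alone. The 3 genes whose log2(CPM + 1) profile over 14 class and library values was most like that of Cd274 were Tank (Pearson r = 0.95), Klf6 (0.95) and Pfkfb3 (0.95). These r values are descriptions, since the 14 points share 2 libraries and include the cells outside every class.

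Between the libraries, Cd274 in tumour-like cells was higher in the knockdown library by a log2 ratio of 0.34 (0.25 to 0.43), while in macrophages the ratio was 0.09 (0.01 to 0.18). Over all genes with at least 50 UMIs, the median ratio was 0.05 in tumour-like cells and 0.12 in macrophages, so the macrophage value lay below the median of its class. Scaling by that median gave Cd274 a ratio of -0.02 in macrophages and 0.29 in tumour-like cells. Among macrophages without a Col1a1, Col1a2, Col3a1 or Hmga2 UMI, 2535 control and 2333 knockdown cells, Cd274 was at 192 and 245 CPM, a ratio of 0.35, and the median over all genes was 0.02. That subset was chosen after the values were seen. The macrophage ratio therefore depended on which cells were counted, and the tumour-like ratio lay between 0.29 and 0.37 under all 12 settings tried. These settings include a minimum of 20 UMIs, which cannot change a ratio. In tumour-like cells thinned to 3000 UMIs each, 10.6% of control (530 of 4986, 9.79 to 11.5%) and 13.1% of knockdown cells (684 of 5211, 12.2 to 14.1%) had a Cd274 UMI. Without thinning the shares were 41.0% and 41.4%, at unequal depths.

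**Figure D1:**
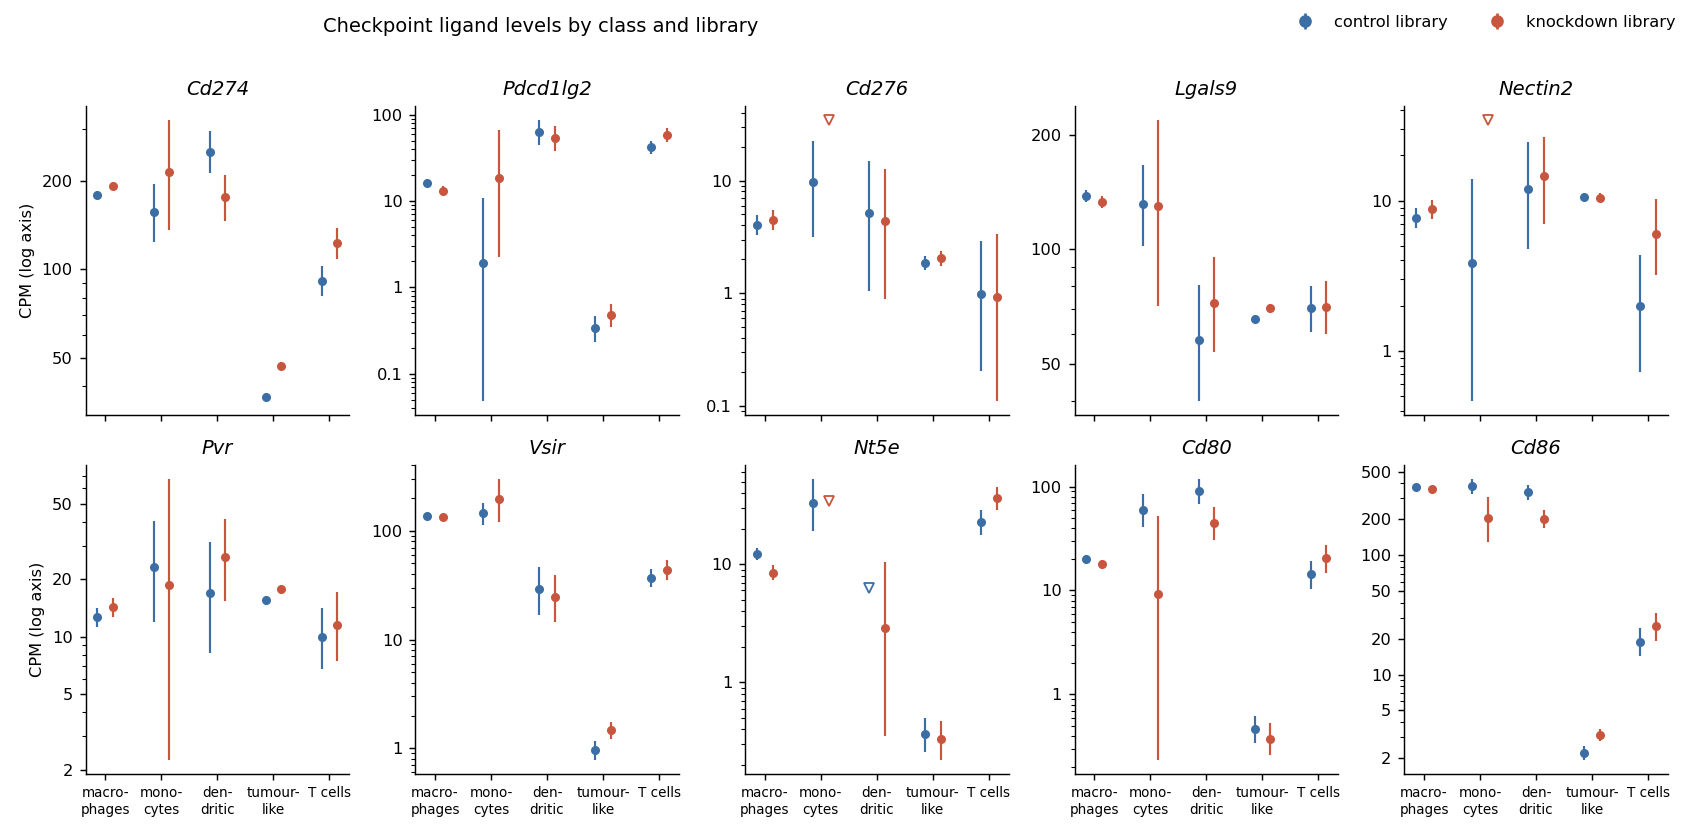
Level of each of the 10 genes in CPM (log axis) in macrophages, monocytes, dendritic cells, tumour-like cells and T cells of the control and knockdown libraries. Points are CPM from summed UMIs, bars exact Poisson 95% intervals, and open triangles the upper bound where no UMI was found. Cd274 spans 36.9 to 250 CPM over the control classes, and Vsir and Cd86 are lowest in tumour-like cells of both libraries.

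Each member was then read against all genes of its class, counting those past 1.5-fold among genes with at least 50 UMIs in both libraries together. In macrophages 0 of 10 members were past 1.5-fold higher and 0 lower, beside 13.8% and 1.82% of 13210 genes. These shares, used below too, depended on the cells counted. They were 5.75% higher and 1.53% lower without removal of doublets. Among macrophages without collagen or Hmga2 UMIs they were 4.03% and 2.47%. In tumour-like cells 1 member, Vsir (0.61, 0.07 to 1.16), was past it higher and 0 lower, beside 4.71% and 1.44% of 14829 genes. As a percent of its macrophage level, Vsir in tumour-like cells lay within the range of macrophage-enriched genes given below. In monocytes 4 members had 50 UMIs, of which 0 were higher and 1, Cd86 (-0.89, -1.76 to -0.08), was lower, beside 12.3% and 14.5% of 2165 genes. The members' median was -0.05 in macrophages against 0.12 over all genes and 0.17 in tumour-like cells against 0.05. Among macrophages without collagen or Hmga2 UMIs, the ratio of Cd86 was 0.25 and that of Vsir 0.29, beside -0.05 for both in the whole class. Cd86 in tumour-like cells had a ratio of 0.50 (0.14 to 0.86) and likewise lay within that range.

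**Figure D2:**
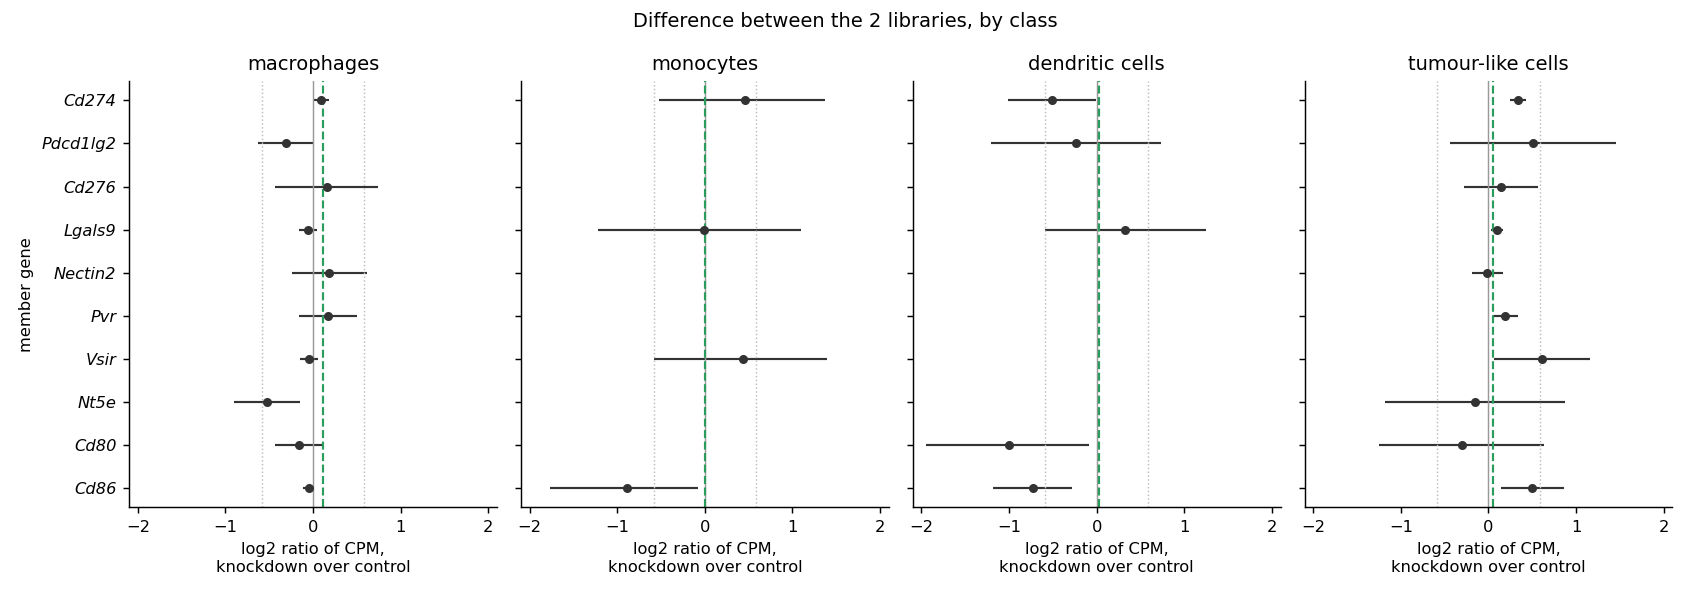
Log2 ratio of CPM, knockdown over control, for each member with at least 50 UMIs in both libraries together, by class. Bars are the range that both Poisson intervals allow, dotted lines mark 1.5-fold and the dashed line the median over all genes. In tumour-like cells the range of Cd274 (0.25 to 0.43) lies above 0, and in dendritic cells the ranges of Cd274, Cd80 and Cd86 lie below 0.

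The tumour-like cells were then split into tertiles by the summed level of 18 interferon-response genes (cuts over both libraries, at 20.3 and 36.9 per 10000 UMIs). Cd274 and Lgals9 are no members of that list. In the control library Cd274 was at 21.7 CPM (20.4 to 23.1) in the low, 34.0 CPM (31.9 to 36.1) in the middle and 70.9 CPM (67.6 to 74.3) in the high tertile, 3.26-fold between the ends. In the knockdown library the 3 values were 23.7 CPM (21.7 to 25.7), 35.8 CPM (33.8 to 38.0) and 73.8 CPM (70.9 to 76.8), 3.12-fold. Within a tertile the log2 ratio was 0.12 (-0.09 to 0.33) in the low, 0.08 (-0.10 to 0.25) in the middle and 0.06 (-0.07 to 0.18) in the high tertile, each range including 0. The high tertile held 26.1% of control (24.9 to 27.4%) and 40.2% of knockdown tumour-like cells (38.9 to 41.6%), and the low tertile 43.0% and 24.1%. With every cell thinned to 3000 UMIs, the high tertile held 25.6% and 39.1%, and the ratio of Cd274 within tertiles was 0.15, 0.12 and 0.17. Tertiles cut from a per-cell sum are ranges and not cell types, and 20.2% of the cells lay within 10% of a cut.

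Lgals9, the galectin-9 gene, also stepped up over the tertiles. In tumour-like cells it was at 43.4, 72.1 and 102 CPM over the control tertiles and at 44.9, 62.7 and 94.9 CPM over the knockdown tertiles. The low tertiles overlapped between libraries (41.6 to 45.3 and 42.2 to 47.8 CPM), and in the middle tertile the knockdown value was lower (60.01 to 65.5 against 69.2 to 75.2 CPM). The ratio in that tertile was -0.20 (-0.33 to -0.08) on 2195 and 2010 UMIs. With cells thinned to 3000 UMIs it was -0.13 (-0.46 to 0.20) on 291 and 316 UMIs, a wider range that includes 0. In macrophages Cd274 was at 119, 180 and 294 CPM over the control and 132, 155 and 268 CPM over the knockdown tertiles of the same list. Lgals9 was at 113, 146 and 175 CPM and at 102, 124 and 164 CPM there. Cd86 was at 315, 370 and 490 CPM in control and 290, 291 and 481 CPM in knockdown macrophages. Cd80 was lower in the high than in the low tertile of both libraries. It was at 25.7, 17.0 and 12.8 CPM in control and 23.8, 15.1 and 16.6 CPM in knockdown macrophages. Its high tertile was 0.50-fold (0.35 to 0.71) and 0.70-fold (0.49 to 0.99) of the low one. The high tertile held 26.0% of control and 39.7% of knockdown macrophages.

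Promoter sequence is shown for 3 genes: Cd274 and Lgals9, whose levels followed the interferon list in both classes, and Nectin2, whose intervals in the low and high tertile overlapped in control tumour-like cells (8.82 to 10.6 and 9.54 to 12.2 CPM) and were apart in knockdown cells (7.58 to 10.0 and 10.7 to 13.1 CPM). The sequences are the 250 bases before the annotated gene start in RefSeq on build GRCm38.p6, 5′ to 3′ on the strand of the gene, on the plus strand at chr19:29367188-29367437 for Cd274 and on the minus strand at chr11:78984925-78985174 for Lgals9 and chr7:19749574-19749823 for Nectin2. Capitals mark matches on either strand to the core of the interferon-stimulated response element (GAAA, any 2 bases, GAAA), to AANNGAAA, a shorter site bound by interferon regulatory factors, or to TTCNNNGAA, the site of activated STAT dimers.
Cd274: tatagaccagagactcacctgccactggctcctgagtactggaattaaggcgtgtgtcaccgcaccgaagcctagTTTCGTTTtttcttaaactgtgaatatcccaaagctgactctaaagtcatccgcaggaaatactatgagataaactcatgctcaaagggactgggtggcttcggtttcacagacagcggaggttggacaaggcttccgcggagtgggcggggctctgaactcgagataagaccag
Lgals9: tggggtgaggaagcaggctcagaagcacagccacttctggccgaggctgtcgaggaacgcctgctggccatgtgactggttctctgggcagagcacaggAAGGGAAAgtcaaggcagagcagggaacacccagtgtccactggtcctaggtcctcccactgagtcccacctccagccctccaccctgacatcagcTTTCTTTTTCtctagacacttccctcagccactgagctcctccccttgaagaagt
Nectin2: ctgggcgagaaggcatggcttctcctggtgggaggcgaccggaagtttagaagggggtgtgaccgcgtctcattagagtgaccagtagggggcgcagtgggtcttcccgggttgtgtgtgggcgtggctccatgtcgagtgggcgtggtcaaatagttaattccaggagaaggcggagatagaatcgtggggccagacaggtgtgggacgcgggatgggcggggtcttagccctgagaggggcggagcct
The Lgals9 window held 2 matches to the element core, TTTCTTTTTC at position -55 and TTTCTGTTTC at position 16 after the start, both read on the opposite strand. That motif occurs in 3.44% of 32851 RefSeq windows of 300 bases (250 before and 50 after the start). The Lgals9 window also held 3 matches to AANNGAAA, of which 2 are part of the longer ones and the third, AAGGGAAA, lies at position -151. AANNGAAA also had 1 match each in Cd274 (position -175), in Pdcd1lg2 (-35) and in Cd80 (31), and neither of the last 2 stepped up with the interferon list in macrophages. AANNGAAA occurs in 23.9% of windows and overlaps the element core where both match. Nectin2 held no match to the 3 motifs, and TTCNNNGAA, in 8.30% of windows, was in no window of the members. Windows were found for 8 of the 10 members, all but Pvr and Cd86. The motifs were picked after the interferon gradient was seen, and a match is a description of letters, not of binding.

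Genes chosen for a link to the regulation of Cd274 or of its protein were read from a list of 17. Among them were interferon receptors, JAK and STAT genes and Cmtm6, which stabilises PD-L1. In tumour-like cells 0 of the 17 were past 1.5-fold in either direction, beside 4.71% higher and 1.44% lower among all genes, with a median of 0.13 against 0.05 over all genes. In macrophages 0 of 17 were past 1.5-fold, beside 13.8% and 1.82% of all genes, and the median of 0.11 lay beside 0.12 over all genes. In monocytes 9 of the 17 had 50 UMIs, of which 4 were higher and 0 lower, beside 12.3% and 14.5% of all genes. They included Irf1, a transcription factor of the interferon response, at 251 and 419 CPM (0.74, 0.04 to 1.42), Ifngr1, a chain of the interferon gamma receptor, at 178 and 307 CPM, and Irf2 at 139 and 233 CPM, the ranges of the last 2 including 0. In dendritic cells 16 had 50 UMIs, of which 0 were higher and 2 lower, beside 8.99% and 10.3% of all genes: Jak2, a kinase of cytokine receptors, at 281 and 158 CPM (-0.83, -1.33 to -0.33), and Ifnar1, a chain of the type I interferon receptor, at 69.8 and 43.5 CPM with a range that includes 0. Of the 18 interferon-response genes 3 were past 1.5-fold higher and 0 lower in tumour-like cells, beside 4.71% and 1.44% of all genes, with a median of 0.39. In macrophages 4 were higher and 0 lower, beside 13.8% and 1.82%, with a median of 0.49. Isg15, a ubiquitin-like protein induced by interferon, was at 266 and 413 CPM in control and knockdown tumour-like cells and at 466 and 741 CPM in macrophages. Cxcl10, a chemokine that draws T cells, was at 332 and 508 CPM in tumour-like cells, and Oasl1 at 8.45 and 13.4 CPM. Ifit2 was at 186 and 337 CPM in macrophages, the largest ratio of the list there (0.86, 0.78 to 0.94), and Ddx58, the RNA sensor RIG-I, at 42.5 and 66.2 CPM. In monocytes 13 of the 18 had 50 UMIs, with 2 higher and 3 lower, among them Ifit3 at 92.7 and 205 CPM, Oasl1 at 106 and 46.6 CPM and Ifih1 at 120 and 27.9 CPM, the last 2 on 5 and 3 knockdown UMIs. In dendritic cells 2 were higher, Ifih1 at 114 and 187 CPM and Mx1 at 51.1 and 79.8 CPM, and 1 was lower, Ifit3 at 250 and 157 CPM.

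Pdcd1lg2, the second PD-1 ligand, was close to absent from tumour-like cells. It gave 35 UMIs in control and 42 in knockdown tumour-like cells, 0.338 CPM (0.235 to 0.470) and 0.479 CPM (0.345 to 0.648). Dendritic cells had 63.0 CPM (44.4 to 86.9) and 53.7 CPM (37.8 to 74.0), and macrophages 16.4 CPM (14.8 to 18.1) and 13.2 CPM (11.8 to 14.9). T cells stood at 41.8 CPM (34.8 to 49.8) and 58.3 CPM (48.5 to 69.4), above macrophages in both libraries and overlapping dendritic cells. T cells with a Cd8a or Cd8b1 UMI and no Cd4 UMI, 326 and 298 in number, a subset chosen after the values were seen, had 49.5 CPM (39.8 to 60.8) and 62.8 CPM (50.8 to 76.8). The fibroblast list summed to 1299 and 915 CPM in T cells, and its part was not tested. In profile, Nr4a3 (r = 0.92), Gramd1b (0.92) and Stat4 (0.88) were most like Pdcd1lg2 over the 14 values.

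Within macrophages Pdcd1lg2 followed the summed antigen-presentation genes H2-Aa, H2-Ab1, H2-Eb1 and Cd74, while over the interferon tertiles it was at 15.7, 20.2 and 12.7 CPM in control and 15.3, 12.7 and 12.4 CPM in knockdown cells. Over the tertiles of those class II genes it was at 3.56, 11.5 (9.23 to 14.1) and 36.1 CPM (31.9 to 40.7) in control macrophages, 10.1-fold between the ends. In knockdown macrophages it was at 4.06 CPM (2.70 to 5.86), 10.9 CPM (8.65 to 13.7) and 23.9 CPM (20.5 to 27.7), 5.90-fold. The libraries differed in the high tertile, with a log2 ratio of -0.59 (-0.99 to -0.20), and overlapped in the others. That ratio rested on 269 and 179 UMIs. In macrophages thinned to 3000 UMIs it was -0.46 (-1.08 to 0.16) on 94 and 80 UMIs, a wider range that includes 0. Thinning left out the cells under 3000 UMIs, 913 of 3990 control and 1705 of 4556 knockdown macrophages. Cd86 was at 278, 396 and 458 CPM over the control and 199, 343 and 529 CPM over the knockdown tertiles, and Cd274 at 134, 184 and 225 CPM and at 126, 174 and 268 CPM. Thinned macrophages gave Cd274 a ratio of 0.27 (0.06 to 0.49) in the high class II tertile, beside 0.25 (0.12 to 0.38) without thinning. In 8.25% of the macrophages the sum lay within 10% of a cut.

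**Figure D3:**
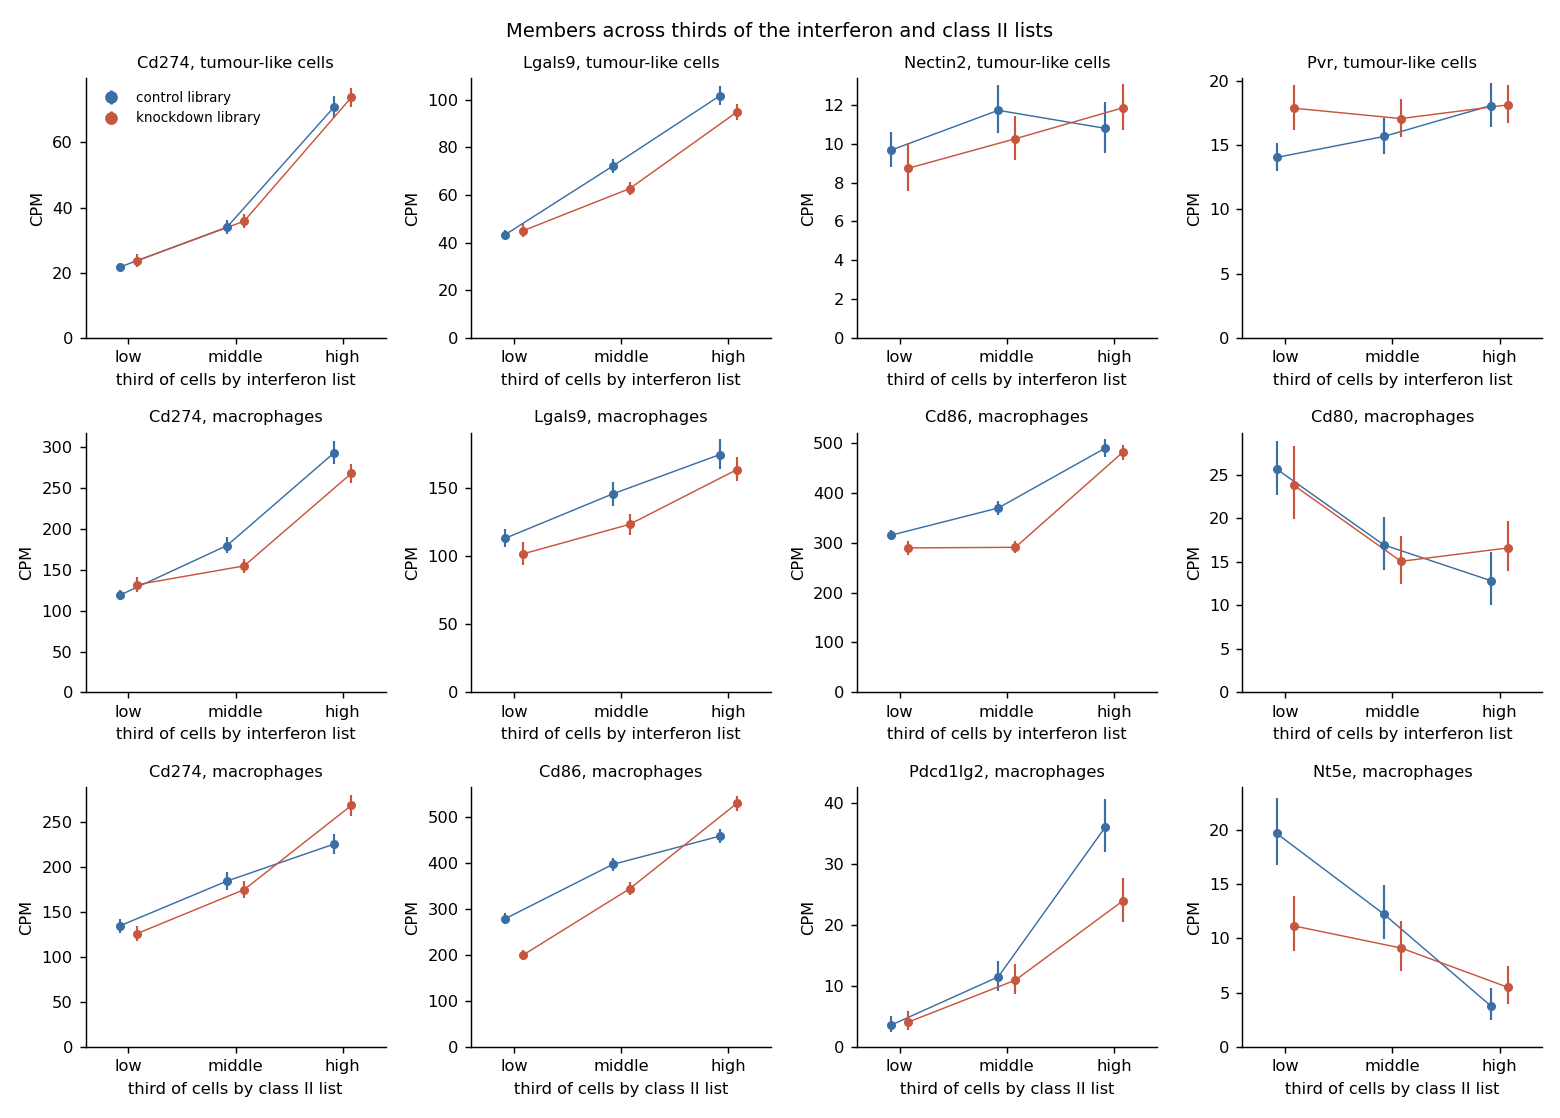
CPM of named members in the low, middle and high tertile of the interferon-response list in tumour-like cells (top row) and macrophages (middle row) and of the class II list in macrophages (bottom row), for both libraries, with exact Poisson 95% intervals. Cd274 and Lgals9 step up with the interferon list in tumour-like cells of both libraries, and the spans of Nectin2 (1.12- and 1.36-fold) and Pvr (1.29- and 1.01-fold) are smaller. Pdcd1lg2 and Nt5e run in opposite directions over the class II tertiles.

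Of the ligands of CD28 and CTLA-4, Cd86 was highest in the myeloid classes, and Cd80 was highest in dendritic cells, overlapping monocytes in both libraries (31 and 1 UMIs in monocytes). Cd86 was at 374 CPM (366 to 381) and 361 CPM (353 to 370) in control and knockdown macrophages, at 379 CPM (327 to 435) and 205 CPM (128 to 310) in monocytes and at 337 CPM (292 to 388) and 203 CPM (171 to 240) in dendritic cells. Cd80 was at 90.3 CPM (67.6 to 118) and 45.0 CPM (30.6 to 63.8) in dendritic cells and at 19.9 CPM (18.2 to 21.8) and 17.8 CPM (16.1 to 19.7) in macrophages. T cells also held Cd80, at 14.3 CPM (10.3 to 19.2) and 20.3 CPM (14.8 to 27.3), overlapping macrophages in both libraries. The control values of Cd86 overlapped in the 3 myeloid classes, and in the knockdown library monocytes and dendritic cells stood below macrophages. After thinning to 3000 UMIs, which left out macrophages below that depth, 3077 control and 2851 knockdown macrophages remained. A Cd80 UMI and a Cd86 UMI were found together in 121 and 106 of these. Of control macrophages with a Cd80 UMI 72.9% (65.5 to 79.5%) also had a Cd86 UMI, against 58.7% (56.9 to 60.5%) of those without, and in the knockdown library the shares were 71.1% (63.2 to 78.3%) and 55.5% (53.6 to 57.4%).

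In the dendritic class both genes were lower in the knockdown library, on few cells. Cd80 had a log2 ratio of -1.01 (-1.95 to -0.08), Cd86 one of -0.73 (-1.18 to -0.28) and Cd274 one of -0.51 (-1.01 to -0.01). Of the 5 members with 50 UMIs there, 2 were past 1.5-fold lower and 0 higher, while 10.3% of all 4115 genes were past that bound lower and 8.99% higher. The 10 dendritic markers summed to 1952 CPM in control and 1140 CPM in knockdown cells. Among them Ccr7, also a gene of the class rule, was at 424 and 245 CPM, Fscn1 at 576 and 290 CPM and Ccl22 at 351 and 142 CPM. These markers were picked after their values were seen. The macrophage markers summed to 8821 and 5052 CPM in the class, and its median depth was 6436 and 9164 UMIs. The parts of both marker lists and of depth in the result were not tested. The class was split by Ccr7, the receptor of migrating mature dendritic cells, and by Xcr1 or Clec9a, markers of the cross-presenting type. In the 31 control and 24 knockdown cells with 2 Ccr7 UMIs or more, Cd274 was at 755 CPM (618 to 912) and 370 CPM (290 to 466), Cd80 at 331 CPM (244 to 441) and 92.6 CPM (54.9 to 146), and Cd86 at 719 CPM (587 to 873) and 190 CPM (134 to 262). Pdcd1lg2 was at 226 CPM (154 to 319) and 165 CPM (113 to 232) in the same cells. In the 21 and 19 Xcr1 or Clec9a cells Cd274 was at 138 CPM (93.0 to 197) and 93.2 CPM (60.3 to 138), and Cd86 at 409 CPM (328 to 503) and 294 CPM (233 to 367).

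Among the Ccr7 cells, 13 of 31 in the control and 9 of 24 in the other library had a Ptprc UMI. The median depth of all Ccr7 cells was 4014 and 5019 UMIs. Over dendritic cells with a Ptprc UMI, 33 and 29, the ratio was -0.95 for Cd274 and -1.004 for Cd86, and over those in no other class, 37 and 31, it was -0.51 and -0.54, with Cd80 at -0.26. Without removal of doublets it was -0.07 for Cd274, -0.72 for Cd80 and -0.35 for Cd86. The fibroblast list summed to 60.6 CPM in control and 959 CPM in knockdown dendritic cells with a Ptprc UMI, and its part in the result was not tested. The cells of a group share 1 library, and a few cells can set these values.

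**Figure D4:**
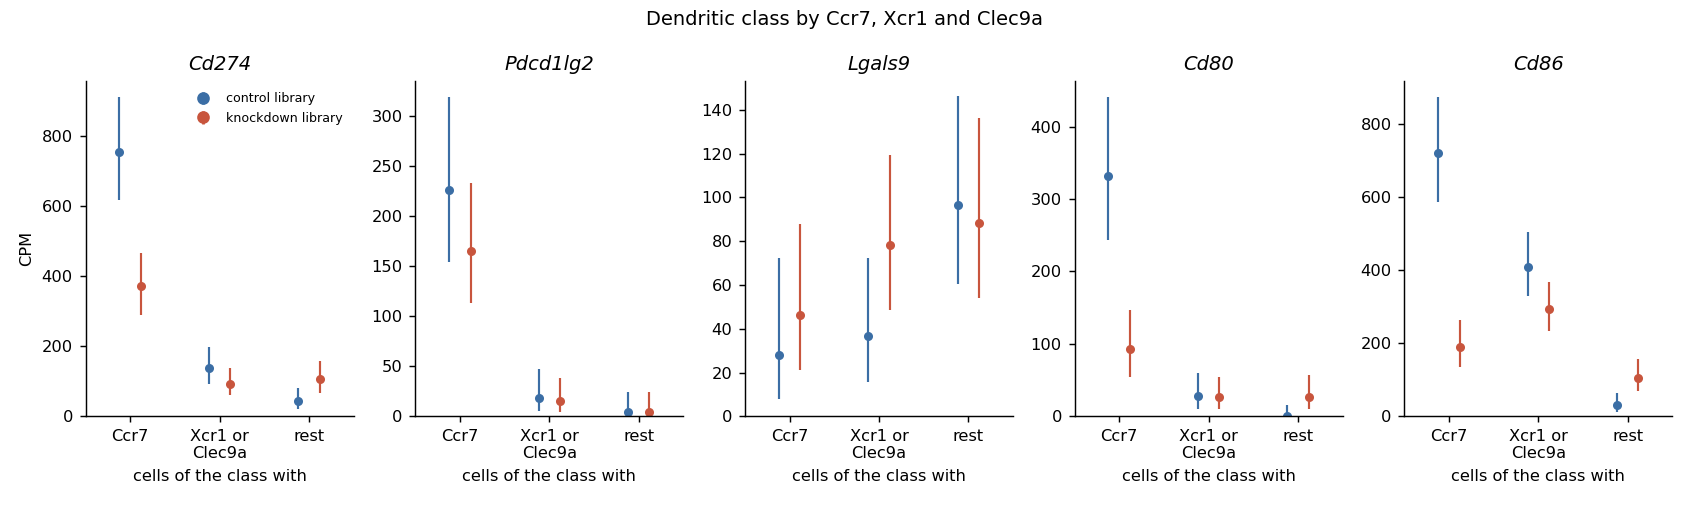
CPM of 5 members in cells of the dendritic class with at least 2 Ccr7 UMIs (31 control, 24 knockdown), with at least 2 Xcr1 or Clec9a UMIs (21, 19) and in the rest (10, 13), with exact Poisson 95% intervals. Cd274, Pdcd1lg2 and Cd80 are highest in the Ccr7 cells of both libraries, and the control values of Cd274, Cd80 and Cd86 lie above the knockdown values there.

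Nectin2 and Pvr, bound by TIGIT and CD226, were the members at which tumour-like cells stood above macrophages. Nectin2 was at 10.55 CPM (9.93 to 11.2) and 10.46 CPM (9.79 to 11.2) in control and knockdown tumour-like cells and at 7.67 CPM (6.60 to 8.87) and 8.74 CPM (7.53 to 10.1) in macrophages. Pvr was at 15.5 CPM (14.7 to 16.3) and 17.7 CPM (16.8 to 18.6) in tumour-like cells and at 12.6 CPM (11.3 to 14.2) and 14.2 CPM (12.7 to 15.9) in macrophages. The intervals of the classes were apart for Pvr in both libraries and for Nectin2 in the control library, and overlapped for Nectin2 in the knockdown library. Pvr had a log2 ratio of 0.19 (0.05 to 0.34) in tumour-like cells and Nectin2 one of -0.01 (-0.19 to 0.17). In the 270 control and 317 knockdown tumour-like cells without a C1qa, C1qb, C1qc, Cd74 or Tyrobp UMI, a subset chosen after the values were seen, the ratio of Pvr was -0.42 and that of Nectin2 -0.49, on 89 and 65 Pvr UMIs. Over the interferon tertiles of tumour-like cells, Pvr was at 14.05, 15.7 and 18.1 CPM in control and 17.9, 17.1 and 18.1 CPM in knockdown cells, a narrower span than that of Cd274. Over the class II tertiles of macrophages Pvr was at 16.2, 12.6 and 8.59 CPM in control and 18.4, 15.7 and 8.95 CPM in knockdown cells.

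Vsir was a macrophage and monocyte gene. It was at 138 CPM (133 to 143) and 133 CPM (128 to 138) in macrophages, 145 CPM (114 to 182) and 196 CPM (121 to 299) in monocytes, 36.8 CPM (30.3 to 44.4) and 43.9 CPM (35.5 to 53.7) in T cells and 29.0 CPM (16.9 to 46.4) and 24.7 CPM (14.4 to 39.5) in dendritic cells. In tumour-like cells it was at 0.965 CPM (0.785 to 1.17) and 1.47 CPM (1.23 to 1.75). Its ratio in macrophages was -0.05 (-0.15 to 0.05). Over the class II tertiles of macrophages it was at 111, 148 and 159 CPM in control and 76.5, 129 and 190 CPM in knockdown cells, so the 2 libraries stood in opposite order at the 2 ends.

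Free RNA in the suspension gives UMIs in cells that do not make a transcript, so the tumour-like level of each member was set beside that of 10 macrophage-enriched genes, as a percent of the macrophage level. The 10 genes were chosen after values had been seen. They stood at 0.405 to 0.752% in control and 0.615 to 1.23% in knockdown tumour-like cells. Vsir at 0.699% and 1.10% and Cd86 at 0.591% and 0.865% lay inside these ranges, and the part of free RNA in their levels was not tested. Cd274 at 20.6% and 24.5%, Lgals9 at 47.5% and 52.6%, Cd276 at 45.8% and 45.3%, Nectin2 at 137% and 120% and Pvr at 122% and 124% lay far above them. Pdcd1lg2 at 2.06% and 3.62%, Nt5e at 3.89% in the knockdown library and 2.12 to 4.12% (95% interval) in the control library and Cd80 at 2.32% and 2.11% lay above the ranges on 29 to 48 UMIs per library. The share of every one of the 10 macrophage-enriched genes was higher in the knockdown library, as were those of Vsir and Cd86.

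**Figure D5:**
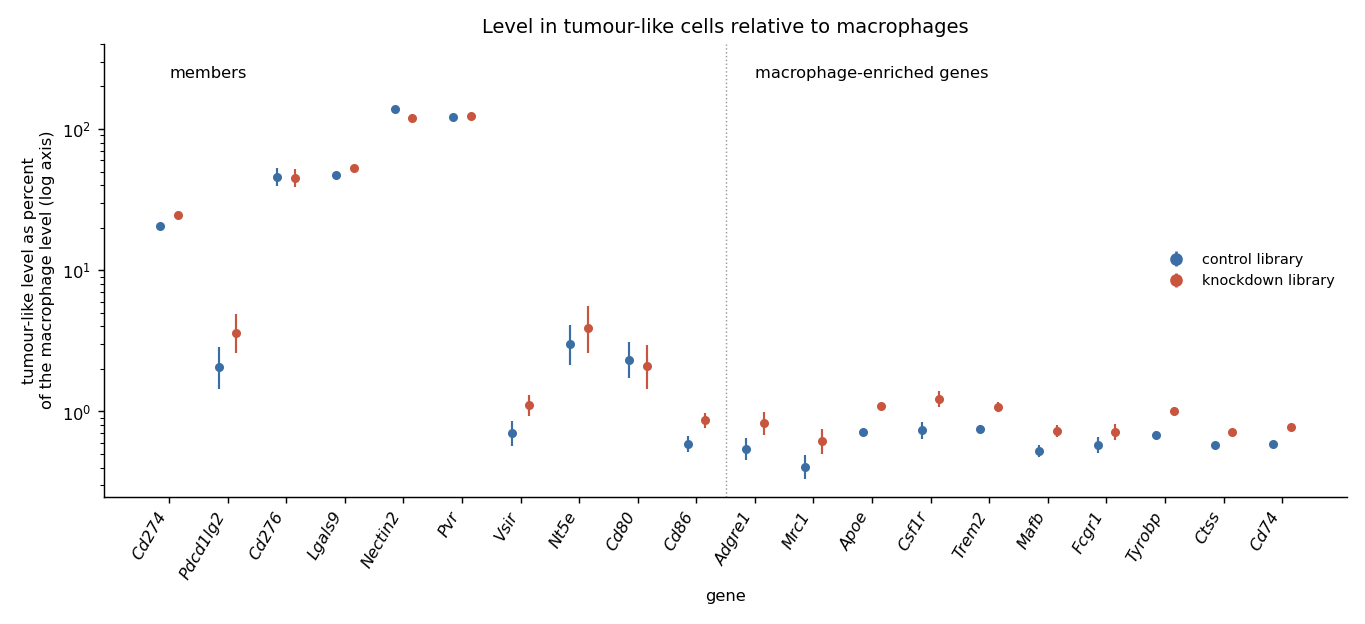
Level in tumour-like cells as a percent of the level in macrophages (log axis) for the 10 members (left) and 10 macrophage-enriched genes (right), in both libraries. Bars are the 95% intervals of the tumour-like counts. Vsir and Cd86 lie among the macrophage-enriched genes between 0.405 and 1.23%, and Cd274, Cd276, Lgals9, Nectin2 and Pvr at 20.6% or above.

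Lgals9 was found in every class, at 138 CPM (133 to 143) and 133 CPM (128 to 138) in macrophages, 131 CPM (102 to 166) and 130 CPM (71.3 to 219) in monocytes, 70.0 CPM (60.9 to 80.2) and 70.7 CPM (59.98 to 82.9) in T cells, 65.6 CPM (64.1 to 67.2) and 70.1 CPM (68.3 to 71.8) in tumour-like cells and 57.9 CPM (40.1 to 80.9) and 72.5 CPM (53.8 to 95.6) in dendritic cells. Macrophages and monocytes did not differ beyond their intervals, nor did T, tumour-like and dendritic cells. The log2 ratio was 0.09 (0.02 to 0.17) in tumour-like cells and -0.05 (-0.16 to 0.05) in macrophages. Cd276, an inhibitory member of the B7 family, was at 4.05 CPM (3.28 to 4.94) and 4.51 CPM (3.66 to 5.50) in macrophages and 1.85 CPM (1.60 to 2.13) and 2.04 CPM (1.75 to 2.36) in tumour-like cells. E130102H24Rik (r = 0.92), Nectin2 (0.86) and Gng5 (0.85) were most like it in profile.

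In the control library Nt5e was highest in monocytes and T cells, with overlapping intervals. It was at 22.9 CPM (17.8 to 29.0) and 36.1 CPM (28.5 to 45.0) in T cells and at 12.2 CPM (10.9 to 13.7) and 8.50 CPM (7.32 to 9.83) in macrophages, where its ratio of -0.52 (-0.91 to -0.14) was the lowest of the members. In monocytes 17 UMIs in control (32.8 CPM, 19.1 to 52.6) stood against 0 UMIs in 40 knockdown cells, with an exact upper bound of 34.3 CPM, which overlaps the control interval. In dendritic cells it gave 0 and 2 UMIs. Over the class II tertiles of macrophages Nt5e ran opposite to Pdcd1lg2, at 19.7, 12.2 and 3.76 CPM in control and 11.2, 9.12 and 5.48 CPM in knockdown cells. After thinning to 3000 UMIs, the ratio of Nt5e in macrophages was -0.05. Thinning also left out the 913 control and 1705 knockdown macrophages below that depth. The parts of depth and of the lost cells in this change were not tested. Msh5 (r = 0.92), Cpm (0.89) and Gm36279 (0.89) were most like it in profile. Of the 8 other genes of the adenosine pathway 7 had 50 UMIs in macrophages, of which 2 were past 1.5-fold lower and 0 higher, beside 1.82% and 13.8% of all genes. These were Enpp1, which releases AMP from ATP, at 8.35 and 5.16 CPM, and Cd38, which breaks down NAD, at 51.3 and 33.7 CPM.

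Other ligands of these families were read from 2 lists. Of 16 other B7, TNF-family and related ligands, 12 had 50 UMIs in macrophages, with 1 higher and 0 lower (Tnfsf18, the ligand of GITR, at 1.22 and 3.02 CPM) beside 13.8% and 1.82% of all genes, and 13 in tumour-like cells, with 1 higher and 0 lower (Icosl, the ligand of ICOS, at 0.241 and 0.411 CPM on 25 and 36 UMIs) beside 4.71% and 1.44%. In monocytes 4 had 50 UMIs, with 0 higher and 2 lower beside 12.3% and 14.5%: Lgals3, which encodes galectin-3, at 4494 and 2039 CPM and Cd24a at 102 and 18.6 CPM (53 and 2 UMIs). In dendritic cells 6 had 50 UMIs, with 0 higher and 1 lower beside 8.99% and 10.3%, Cd200 at 56.2 and 30.5 CPM with a range that includes 0. Of 5 other nectins and nectin-like genes, 4 had 50 UMIs in macrophages, with 2 higher beside 13.8% of all genes: Nectin3, which binds Nectin2 and Pvr, at 5.52 and 14.97 CPM, and Nectin1 at 1.14 and 2.42 CPM. Macrophages of the knockdown library held more fibroblast-list RNA and more Hmga2, as given above, and the part of RNA from tumour-like cells in these values was not tested. In tumour-like cells 3 of the 5 had 50 UMIs, and Cadm1 was past 1.5-fold lower at 2.59 and 1.51 CPM, beside 1.44% of all genes. In dendritic cells Cadm1 alone of the 5 had 50 UMIs and was past that bound lower, at 116 and 74.0 CPM with a range that includes 0.

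The receptors were read in T cells. Of 9 receptors 8 had 50 UMIs, of which 2 were past 1.5-fold higher and 0 lower, beside 4.15% and 3.27% of 8937 genes. The 10 T cell markers summed to 3059 and 3891 CPM in control and knockdown T cells and the fibroblast markers to 1299 and 915 CPM, and their part in the values of these cells was not tested. Havcr2, which encodes TIM-3, was at 31.2 and 70.3 CPM in the T cells of the control and knockdown libraries, a ratio of 1.17 (0.64 to 1.71), and Lag3, an inhibitory receptor that binds class II, at 50.8 and 99.0 CPM (0.96, 0.53 to 1.39). Pdcd1, which encodes PD-1, was at 116 and 153 CPM (0.40, 0.09 to 0.71), short of 1.5-fold. The receptors of Nectin2 and Pvr lay below that bound too, with Tigit at 14.3 and 18.5 CPM and Cd226 at 99.6 and 124 CPM. Cd274 in T cells themselves had a ratio of 0.42 (0.07 to 0.77). It was 0.18 (-0.27 to 0.64) in the Cd8 cells and 0.73 (0.10 to 1.36) in T cells outside the Cd8, Cd4 and Foxp3 subsets.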

How the data were processed

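Single-cell RNA of 1 control and 1 knockdown library was analysed from the UMI counts per gene and cell that the authors deposited. Cell Ranger is given as version 6.1.0 per the file headers and as 3.1.0 per the submitters' processing notes. The genome build and annotation are not given in the sources used here. Cells with under 200 genes or over 20% mitochondrial UMIs were dropped, and doublets were removed with Scrublet in scanpy 1.11.5 at 0.8% per 1000 cells (1148 control and 1322 knockdown cells, where the automatic threshold called 1089 and 2808). Kept UMIs numbered 138972698 and 118549975. UMIs were summed per class, with exact Poisson intervals for levels and Clopper-Pearson intervals for shares, both at 95%, in Python 3.11.15 with scipy 1.17.1. The range of a log2 ratio sets the bounds of both intervals against each other. The dendritic threshold was read as raw UMIs. No test was possible with 1 library per group. A cell could meet more than 1 rule. The ratio script was tested on simulated data.

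Named were all members, up to 3 genes per list and class with the largest ratio past 1.5-fold, and the 3 genes most like Cd274, Pdcd1lg2, Nt5e and Cd276 in profile (at least 200 UMIs, pseudocount 1). Genes named outside that rule were chosen after their values were seen. The members and lists were chosen with earlier results of these data known. Alternatives covered cell filters, scaling, thinning, class rules and thresholds.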

Additional observations from a re-analysis of the deposited data

Results flagged for a closer look

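The sign of the Cd274 difference was not the same in every class of cells. Its log2 ratio of knockdown over control was 0.34 in tumour-like cells and 0.094 in macrophages, with ranges above 0, and -0.51 in dendritic cells, with a range below 0. The macrophage value lay below the median of 0.12 over all genes and was -0.02 after scaling by it, and the dendritic value was -0.07 without doublet removal. Cd86 had a ratio of 0.50 in tumour-like cells against -0.89 in monocytes and -0.73 in dendritic cells. Its tumour-like level, 0.591% and 0.865% of that in macrophages, lay within the range of macrophage-enriched genes. In both cases ranges that exclude 0 lie on opposite sides, a criterion chosen after the values were seen. With 1 library per group these differences were not tested.

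Cells outside every class, 995 control and 1186 knockdown cells, also held Cd274, at 60.9 CPM (55.7 to 66.4) and 84.3 CPM (77.7 to 91.2). Apart from the profile r values, no comparison between classes uses these cells, and no background level was set for them.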

How the results depend on the processing

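No paired analysis was possible because each group has 1 library, and for the same reason no replicate could be left out. Of the log2 ratios of single members under the alternatives, 235 stayed within the counting range of the value given and 20 moved outside it. The 235 include ratios that could not move. A minimum of 20 UMIs changes which genes are counted and not a ratio, and placing each cell in 1 class leaves monocytes as they were. Of the shares of cells 66 stayed and 94 moved. Their alternatives differed in depth, with which the share of cells with a UMI rises. Neither tally therefore measures how robust the values are.

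The counts of members past 1.5-fold were small and changed with the setting. In dendritic cells the count lower was 1 without doublet removal, 1 with all deposited barcodes, 1 past 2-fold, 0 with every cell weighted equally and 0 for cells in no other class, in place of 2, and 3 with the threshold per 10000 UMIs. The count higher there was 1 in place of 0 with equal weights, with the threshold per 10000 UMIs and with a minimum of 20 UMIs, where 18.3%, 15.4% and 12.6% of all genes were higher in place of 8.99%. The share of all genes lower in that class lay between 2.41% (past 2-fold) and 17.8% (in no other class) over the settings that changed its count. In macrophages the count lower was 1 in place of 0 with equal weights and with scaling by the median ratio (2.60% and 3.13% of all genes in place of 1.82%). In tumour-like cells the count higher was 3 with each cell in 1 class, 2 with no minimum of UMIs, and 0 in place of 1 after median scaling, after thinning to 3000 UMIs, past 2-fold and for cells without macrophage UMIs. Of all genes 4.74%, 4.66%, 3.91%, 3.09%, 1.11% and 3.56% were higher under these settings in that order, in place of 4.71%. The count lower was 1 in place of 0 with equal weights and without Krt16 or Klk8 cells (1.69% and 1.03% of all genes in place of 1.44%). In monocytes the count lower was 2 with a minimum of 20 UMIs and 0 past 2-fold, in place of 1. Of the genes with a UMI in both libraries, 17.6% and 5.84% were lower there in place of 14.2%. The causes were not tested. Some of these settings were chosen after seeing the data: the dendritic cells in no other class or with a Ptprc UMI, the macrophages without collagen or Hmga2 UMIs, and the tumour-like cells without macrophage UMIs. Few cells limit monocytes and dendritic cells, where 4 and 5 of the 10 members had 50 UMIs, and NK cells, where 0 had.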

Other observations

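In cells outside every class the level of Lgals9 was 68.4 CPM (control) and 73.2 CPM (knockdown), Pvr at 19.7 and 22.7 CPM and Nectin2 at 11.8 and 11.6 CPM. NK cells, 34 and 33 in number, gave 15 and 12 Cd274 UMIs and 9 Pdcd1lg2 UMIs in each library.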
